A study of Homo sapiens with 10 samples.

Results

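TOP2A, ECT2, PRC1 and MKI67 are 4 genes that proliferating cells transcribe most strongly in G2 and M phase, the part of the cell cycle in which chromosomes condense and the cell divides. They were taken by gene symbol, were chosen by their earlier measured differences between the groups compared below, and are 4 of 14884 genes named on the arrays. Each was read by 1 row of the expression table. The study overexpressed CENPU, a subunit of the inner kinetochore, in PC-3, an established human cell line grown from a bone metastasis of prostate cancer. The groups were 5 PC-3 clones that carried CENPU in a p-Lenti vector (CENPU clones 1, 4, 5, 7 and 13) and 5 PC-3 clones that carried the same kind of vector without an insert (control clones 1 to 5). All 10 clones carried a vector and came from cells selected with blasticidin, each clone is a separate isolate of a single line, and 1 Affymetrix array was hybridised per clone. For the vector promoter that drives CENPU, no name is given in the sources used here. Levels are the authors' log2 values, in which 1 unit is a doubling, and differences are CENPU minus control clones.

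The 4 gene products act at successive steps of division. TOP2A is the topoisomerase that untangles sister DNA and shapes the mitotic chromosome, and MKI67 (Ki-67, the standard histological marker of proliferating cells) coats the surface of that chromosome and keeps chromosomes apart. PRC1 bundles the antiparallel microtubules of the central spindle, and ECT2 is the exchange factor that switches on RhoA at the cell equator so that the cleavage furrow forms. Genes of this class are held down by the DREAM complex outside the cell cycle and are switched on by MYBL2 (B-MYB) with the MuvB proteins and by FOXM1. Many carry a cell cycle genes homology region (CHR), the MuvB binding element, and CCAAT boxes, which bind NF-Y, just before their start.

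The 250 bases before a listed start of each gene are shown because the 4 genes share both elements in these windows. The sequences are those of RefSeq (GRCh38.p14), printed 5′ to 3′ on the strand of the gene. Capitals mark the CHR letters TTTGAA, read as TTCAAA on the other strand, and the CCAAT box, read as ATTGG on the other strand. The windows lie at chr17:40417897-40418146 (minus strand) for TOP2A, chr3:172750476-172750725 (plus strand) for ECT2, chr15:90994536-90994785 (minus strand) for PRC1 and chr10:128126424-128126673 (minus strand) for MKI67. ECT2 has a second listed start, and the window of the first one is printed. The window of the second start held CHR matches, ending 237 and 177 bases before it, but no CCAAT box. For ECT2 the sharing of both elements thus rests on the first start.
TOP2A: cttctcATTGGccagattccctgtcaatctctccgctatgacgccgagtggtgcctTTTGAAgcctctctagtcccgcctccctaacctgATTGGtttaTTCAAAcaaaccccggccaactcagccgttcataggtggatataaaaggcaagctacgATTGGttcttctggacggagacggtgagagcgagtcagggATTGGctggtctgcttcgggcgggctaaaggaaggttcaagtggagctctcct
ECT2: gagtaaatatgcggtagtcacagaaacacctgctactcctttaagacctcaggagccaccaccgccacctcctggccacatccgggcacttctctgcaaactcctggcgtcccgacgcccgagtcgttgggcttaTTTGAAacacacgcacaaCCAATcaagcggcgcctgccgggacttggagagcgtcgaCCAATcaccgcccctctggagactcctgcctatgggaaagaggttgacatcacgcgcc
PRC1: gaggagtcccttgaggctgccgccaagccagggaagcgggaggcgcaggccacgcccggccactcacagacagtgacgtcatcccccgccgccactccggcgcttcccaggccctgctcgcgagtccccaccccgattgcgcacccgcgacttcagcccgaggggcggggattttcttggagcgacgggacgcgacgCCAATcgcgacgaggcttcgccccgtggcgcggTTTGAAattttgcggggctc
MKI67: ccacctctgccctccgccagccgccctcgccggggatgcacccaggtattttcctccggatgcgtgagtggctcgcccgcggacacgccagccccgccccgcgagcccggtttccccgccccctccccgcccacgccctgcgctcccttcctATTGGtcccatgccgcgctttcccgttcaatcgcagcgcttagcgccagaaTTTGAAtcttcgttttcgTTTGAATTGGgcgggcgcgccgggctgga

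TOP2A held 2 CHR matches, 1 on each strand, and 4 CCAAT boxes, all of them in the inverted orientation. ECT2 held 1 CHR match, ending 110 bases before the start, followed by 2 CCAAT boxes. In PRC1 the single CHR match ended 15 bases before the start and the CCAAT box 49 bases before it. MKI67 held 2 CHR matches, ending 42 and 24 bases before the start, and the second shared 1 base with an inverted CCAAT box. Of all 35116 such windows in the table, 13.3% held a CHR match on either strand, 32.0% a CCAAT box and 4.69% both. A match is a description of the letters and does not show that a factor binds there.

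CENPU itself was higher in every CENPU clone (8.70 to 9.84) than in every control clone (5.78 to 6.56), so the clones matched their labels. Array medians lay between 4.62 and 4.76. The keratin gene KRT18 averaged 10.61 ± 0.35 in CENPU clones and 10.82 ± 0.15 in control clones (SD, n = 5 each), and the prostate lineage gene HOXB13 averaged 11.28 ± 0.21 in CENPU clones and 10.86 ± 0.09 in control clones. Of 5 measured markers of other cell types (CD14, CD68, PECAM1, VWF and DES), 0 passed in limma, 0 had an unadjusted p under 0.05, and their mean levels ran from 4.19 to 10.25 in CENPU clones. The highest was CD68, a lysosomal gene that is not limited to macrophages. Of 7 measured epithelial and prostate markers, HOXB13 and VIM, an intermediate filament gene, were higher in CENPU clones, by 0.42 and 0.74 (limma adjusted p = 0.0323 and 0.00446), or 28.6% against 10.1% of all genes that passed in either direction. EPCAM, KRT18, KRT8, KLK3 and FOLH1 differed by 0.85, -0.21, -0.03, -0.04 and 0.08 and did not pass, and CDH1, CDH2 and TMPRSS2 were not analysed here. The part of these markers in the differences below was not tested.

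TOP2A stood at 7.47, 7.82, 8.36, 8.99 and 9.57 in CENPU clones 1, 4, 5, 7 and 13, against 7.04, 5.94, 6.71, 7.09 and 7.29 in control clones 1 to 5. The groups did not overlap, but the lowest CENPU clone lay only 0.19 above the highest control clone. The means were 8.44 ± 0.85 in CENPU clones and 6.81 ± 0.53 in control clones (SD, n = 5 each), a log2 difference of 1.63 with a standard error of 0.38, or 3.09-fold. Among CENPU clones alone TOP2A spanned 2.09, more than the difference between the groups. In RNA from a whole culture, a larger share of cells in G2 and M phase and more of this RNA per dividing cell cannot be told apart.

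MKI67 stood at 8.32, 8.41, 9.20, 9.28 and 9.83 in CENPU clones 1, 4, 5, 7 and 13. In control clones 1 to 5 it stood at 8.90, 7.43, 8.26, 8.60 and 8.46. The groups overlapped: CENPU clones 1 and 4 lay below control clones 1, 4 and 5. The means were 9.01 ± 0.64 in CENPU clones and 8.33 ± 0.55 in control clones (SD, n = 5 each), a log2 difference of 0.68 with a standard error of 0.32, or 1.60-fold.

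ECT2 stood at 7.83, 7.85, 8.39, 9.19 and 9.72 in CENPU clones 1, 4, 5, 7 and 13, and at 7.58, 6.30, 7.23, 7.51 and 7.62 in control clones 1 to 5. As for TOP2A, the groups did not overlap, with a gap of 0.20, and control clone 2 was the lowest of all. The means were 8.60 ± 0.84 in CENPU clones and 7.25 ± 0.55 in control clones (SD, n = 5 each), a log2 difference of 1.35 with a standard error of 0.38, or 2.54-fold.

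PRC1 stood at 7.99, 8.46, 8.16, 8.23 and 8.46 in CENPU clones 1, 4, 5, 7 and 13, and at 8.02, 7.01, 7.14, 7.57 and 7.52 in control clones 1 to 5. A single control clone, number 1, reached the CENPU range, where it lay 0.02 above CENPU clone 1. The means were 8.26 ± 0.20 in CENPU clones and 7.45 ± 0.40 in control clones (SD, n = 5 each), a log2 difference of 0.81 with a standard error of 0.18, or 1.75-fold. PRC1 thus had a smaller difference than TOP2A and ECT2, and also the smallest standard error of the 4.

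**Figure D1:**
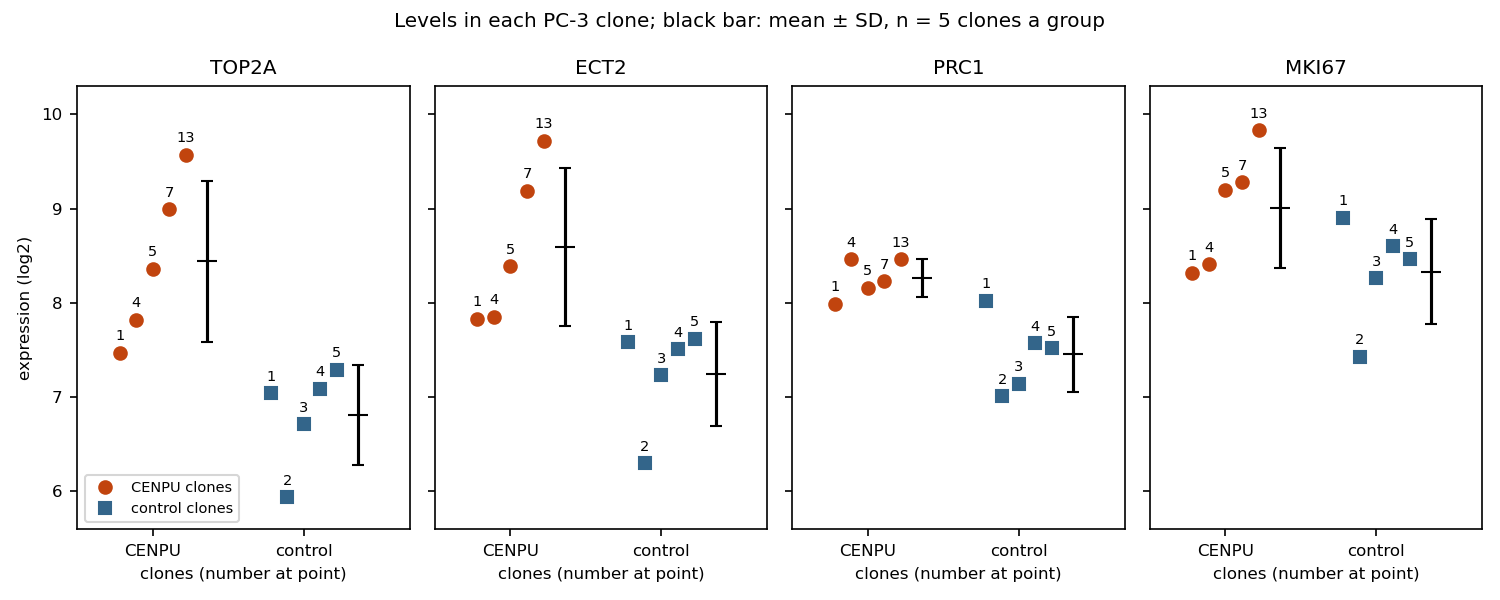
Levels of TOP2A, ECT2, PRC1 and MKI67 (log2, y axis) in the 5 CENPU clones (circles, left) and 5 control clones (squares, right), each point numbered by clone, with the mean and SD as black bars. TOP2A and ECT2 show no overlap, PRC1 overlaps by 0.02, and MKI67 overlaps widely, with control clone 1 at 8.90 above CENPU clones 1 and 4.

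In the limma fit across all genes, TOP2A, ECT2 and PRC1 passed at an adjusted p under 0.05 and MKI67 did not. Of all 14884 genes 10.1% passed, and in 4.54% the groups did not overlap with CENPU clones higher, as for TOP2A and ECT2. The 4 genes were chosen with this contrast known, so nothing is read from these calls.

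The clones differed far more in TOP2A, ECT2 and MKI67 than in PRC1. The SD between clones of a group, pooled over both groups, was 0.71 for TOP2A, 0.71 for ECT2, 0.60 for MKI67 and 0.31 for PRC1. Of the 1856 genes whose mean level was within 0.5 of that of TOP2A, 97.6% had a smaller SD. The same share was 97.4% for ECT2 and 96.3% for MKI67, but 66.6% for PRC1.

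That spread was shared between genes. To leave out the difference between the groups, each clone was expressed as its deviation from the mean of its own group. CENPU clone 13 deviated by 1.13 in TOP2A, 1.13 in ECT2 and 0.82 in MKI67, whereas CENPU clone 1 deviated by -0.97, -0.77 and -0.69 in the same order. Control clone 2 deviated by -0.88, -0.95 and -0.90. These 3 genes thus ranked the 5 CENPU clones in 1 order, with clone 1 lowest and clone 13 highest.

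Over the 10 clones the deviations of TOP2A and ECT2 correlated with Pearson's r = 0.99 and Spearman's rho = 0.96 (exact two-sided permutation within groups, adjusted p = 0.000833 and 0.00167). TOP2A and MKI67 correlated with r = 0.93 and rho = 0.87 (exact permutation, adjusted p = 0.00222 and 0.0115), and ECT2 and MKI67 with r = 0.94 and rho = 0.88 (exact permutation, adjusted p = 0.00146 and 0.0115). Adjustment was over the 6 pairs. Without CENPU clones 7 and 13, the 2 clones farthest from the median of TOP2A and of ECT2, these 3 correlations were 0.97, 0.91 and 0.95 over 8 clones.

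PRC1 followed the others less closely. Its deviations correlated with those of TOP2A at r = 0.54, rho = 0.56 (exact permutation, p = 0.074 and 0.0874, adjusted p = 0.0858 and 0.0874) and with those of ECT2 at r = 0.54, rho = 0.60 (exact permutation, p = 0.0858 and 0.0722, adjusted p = 0.0858 and 0.0866). With MKI67 it correlated at r = 0.66, rho = 0.72 (exact permutation, p = 0.041 and 0.0299, adjusted p = 0.0615 and 0.0448), and r was 0.44 without control clones 2 and 3. PRC1 was highest in CENPU clones 4 and 13, at 8.46 in both, while TOP2A stood at 7.82 and 9.57 in them. Whether the correlations of PRC1 differ from those of the other pairs was not tested.

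**Figure D2:**
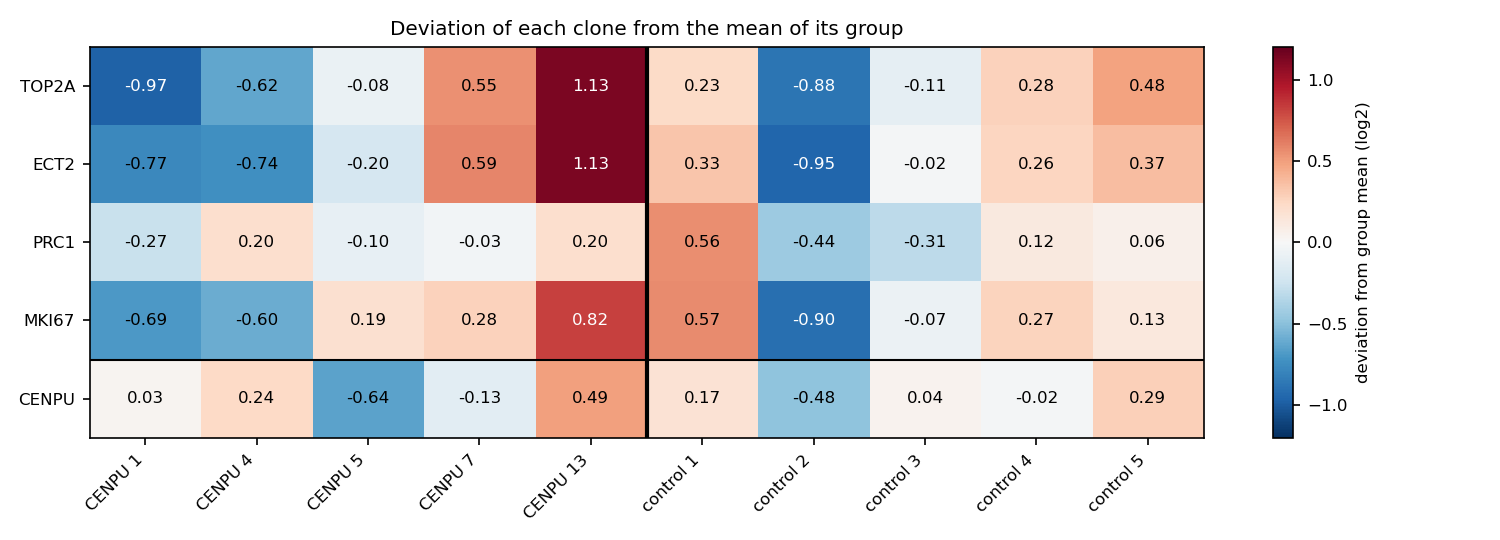
Deviation of each clone (columns, CENPU clones left of the black line, control clones right) from the mean of its group, in log2 units by colour and number, for the 4 genes and for CENPU. CENPU clones 1 and 4 and control clone 2 are low and CENPU clone 13 is high in TOP2A, ECT2 and MKI67, while PRC1 stays between -0.44 and 0.56.

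Taken over both groups together, clones with more CENPU than their group mean were not shown to have more of the 4 genes. The deviations of CENPU correlated with those of TOP2A at r = 0.45, rho = 0.35 (exact permutation, p = 0.261 and 0.398, adjusted p = 0.348 and 0.459), of ECT2 at r = 0.49, rho = 0.48 (exact permutation, p = 0.217 and 0.214, adjusted p = 0.348 and 0.427), of PRC1 at r = 0.56, rho = 0.62 (exact permutation, p = 0.0706 and 0.0616, adjusted p = 0.282 and 0.246) and of MKI67 at r = 0.36, rho = 0.28 (exact permutation, p = 0.358 and 0.459, adjusted p = 0.358 and 0.459). Without CENPU clones 4 and 13 these r values were 0.36, 0.49, 0.44 and 0.31. CENPU clone 5 had the least CENPU of its group (8.70) and ranked in the middle of it for TOP2A, ECT2 and MKI67. Control clone 2 had the least CENPU of its group (5.78) and was the lowest control clone in all 4 genes. The r values pool both groups, and values for each group alone were not computed. In CENPU clones, CENPU RNA from the vector and from the cell's own gene was not told apart.

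A trend of whole arrays moved with TOP2A, ECT2 and MKI67. In each clone, the deviation from the 10-clone mean was correlated with genomic span over 11911 protein-coding genes, without the 4 genes, and Spearman's rho was taken as the gene span trend of that clone. A positive value means that long genes read relatively high in that clone. The trend was -0.160, -0.0357, 0.197, 0.315 and 0.360 in CENPU clones 1, 4, 5, 7 and 13, and -0.0934, -0.355, -0.163, -0.279 and -0.165 in control clones 1 to 5. The CENPU clones thus ranked by this trend in the order in which they ranked by TOP2A, and control clone 2 was lowest in both.

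Within groups the trend correlated with TOP2A at r = 0.89, rho = 0.81 (exact permutation, p = 0.00361 and 0.0289, adjusted p = 0.00574 and 0.0385), with ECT2 at r = 0.88, rho = 0.82 (exact permutation, p = 0.00431 and 0.0228, adjusted p = 0.00574 and 0.0385) and with MKI67 at r = 0.87, rho = 0.87 (exact permutation, p = 0.00236 and 0.00368, adjusted p = 0.00574 and 0.0147). With PRC1 it correlated at r = 0.43, rho = 0.39 (exact permutation, p = 0.13 and 0.219, adjusted p = 0.13 and 0.219). Without CENPU clones 7 and 13 the r values were 0.76 for TOP2A, 0.72 for ECT2, 0.44 for PRC1 and 0.81 for MKI67, and none passed over 8 clones (exact permutation, p = 0.0417, 0.025, 0.256 and 0.0222, adjusted p = 0.0556, 0.05, 0.256 and 0.05). Arrays carry no measure of RNA quality here, and what part this trend has in the levels was not tested.

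**Figure D3:**
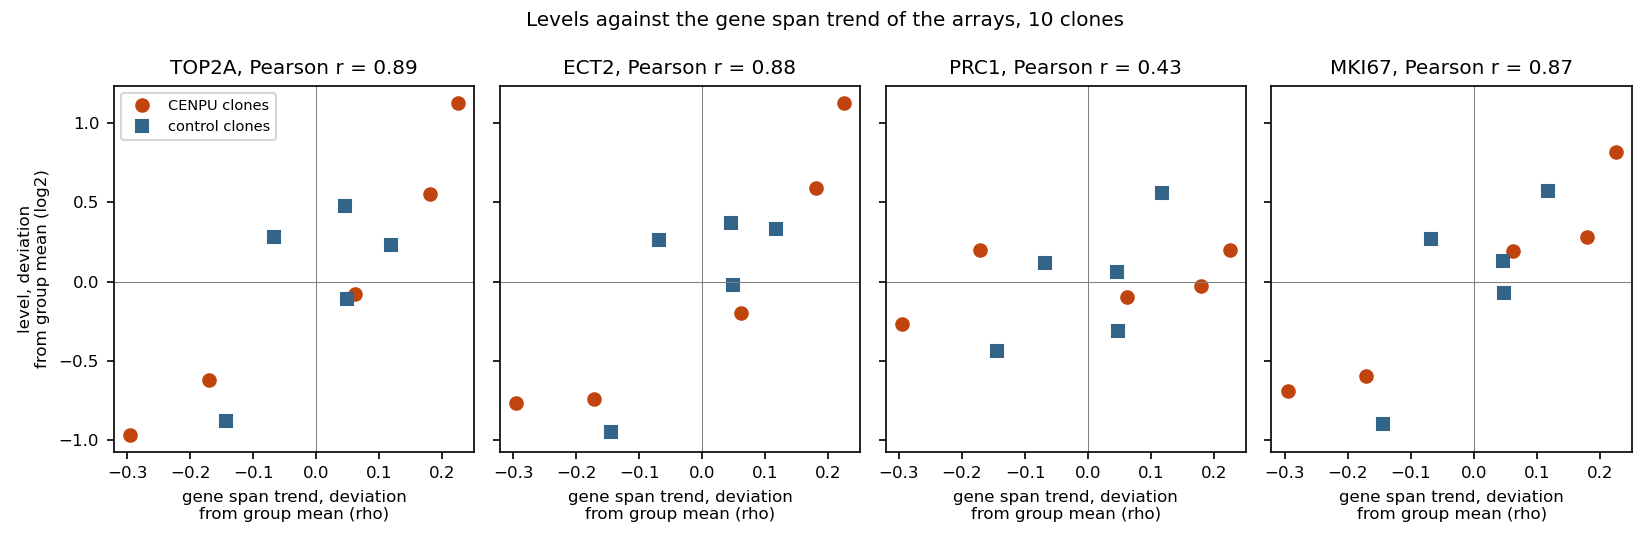
Deviation of the level of each gene from its group mean (log2, y axis) against the deviation of the gene span trend from its group mean (Spearman's rho, x axis) in 5 CENPU clones (circles) and 5 control clones (squares). TOP2A, ECT2 and MKI67 are higher where the trend is higher (r = 0.89, 0.88 and 0.87), and PRC1 less so (r = 0.43).

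With the trend removed from every array by a loess curve on span, the log2 differences were 1.55 for TOP2A (standard error 0.34), 1.17 for ECT2 (0.31), 0.74 for PRC1 (0.17) and 0.60 for MKI67 (0.28), each a little below the value without this step. The correlations of TOP2A with ECT2 and MKI67 were 0.98 and 0.92 on those values. The step takes out only the average deviation of genes of like span, so it cannot show what part the trend has in the levels. CENPU clones 7 and 13 and control clone 2, the clones at the ends of the trend, are also the highest and lowest clones in TOP2A, ECT2 and MKI67, so leaving them out narrows those differences by construction. Without these 3 clones the difference was 0.85 for TOP2A (standard error 0.21), 0.54 for ECT2 (0.16), 0.64 for PRC1 (0.19) and 0.09 for MKI67 (0.22). None of the 4 genes passed in the limma fit over these 7 clones. In that fit 3.16% of all genes passed, against 10.1% in all clones, so nothing is read from these calls either. Without control clone 2 alone the MKI67 difference was 0.45.

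**Figure D4:**
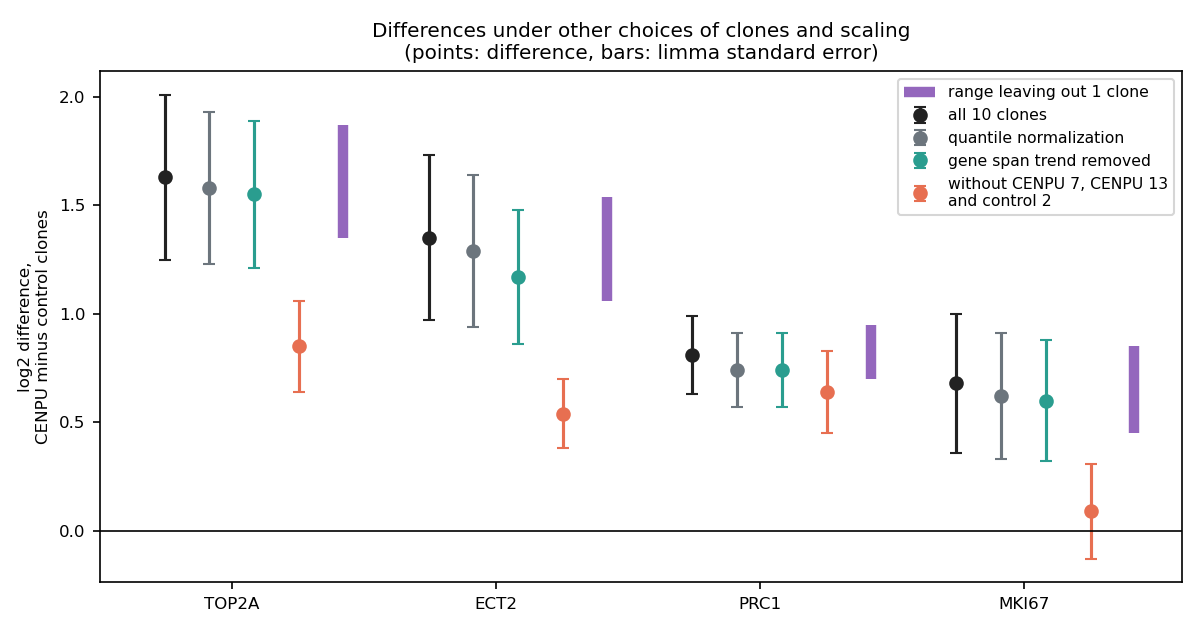
Log2 differences between CENPU and control clones (y axis) for the 4 genes with limma standard errors, for all 10 clones, after quantile normalization, after removal of the gene span trend, and without 3 clones, with the range over fits that leave out 1 clone as a vertical band. Without CENPU clones 7 and 13 and control clone 2, TOP2A falls to 0.85 and MKI67 to 0.09, whereas PRC1 is at 0.64.

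Other genes transcribed in G2 and M phase were also often higher in CENPU clones. Of 47 measured genes on this list besides the 4, 9 rose, 0 fell and 38 did not pass in limma, or 19.1% higher, against 5.31% of all genes higher and 4.79% lower. With no adjustment for the number of tests, 25 were higher at p under 0.05 and 1 was lower. The shares of all genes just given are for adjusted p and do not apply to these 2 counts. The share of all genes at an unadjusted p under 0.05 was not counted, for this list or any other. The median log2 difference was 0.60, against -0.02 over all genes. The list, like the others below, was chosen with earlier results of these data known. CKAP5, a microtubule polymerase, rose by 1.50 (standard error 0.31, limma adjusted p = 0.0144), the spindle protein gene CKAP2 by 1.41 (0.30, adjusted p = 0.0165) and CCNB2, a mitotic cyclin, by 1.22 (0.28, adjusted p = 0.0222). CKAP2L rose by 1.18, KIF4A by 0.76 and SGO2, which protects centromeric cohesion, by 0.60 (limma adjusted p = 0.0226, 0.0283 and 0.0164). The row of SGO2 was dim, averaging 4.59 ± 0.21 in CENPU clones and 4.0 ± 0.2 in control clones (SD, n = 5 each).

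Many known mitotic genes on the list did not pass. The spindle motor gene KIF11 differed by 1.13 and the outer kinetochore gene NDC80 by 1.12, with standard errors of 0.40 and 0.37 (limma adjusted p = 0.0959 and 0.0798). PLK1, CDC20 and BIRC5, a kinase, an activator of the anaphase-promoting complex and the chromosomal passenger survivin, were picked out with their values known. They differed by -0.07, 0.08 and -0.11, with standard errors of 0.17 to 0.19. The difference went with span within the list, with the 4 genes included. Of the 17 list genes with the shortest span (2.98 to 17.8 kb) 0 passed, with a median difference of 0.07. Of the middle 17 and the longest 17, 6 each rose, with medians of 0.69 and 0.76, against 5.31% of all genes of any span. After removal of the span trend the 3 medians were 0.16, 0.61 and 0.57. These calls include TOP2A, PRC1 and ECT2, which were chosen with this contrast known. Calls over all genes were not counted by span, so whether the pattern is particular to the list was not tested. TOP2A (29.4 kb), PRC1 (28.5 kb) and MKI67 (29.8 kb) lie in the middle part and ECT2 (78.5 kb) in the longest.

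**Figure D5:**
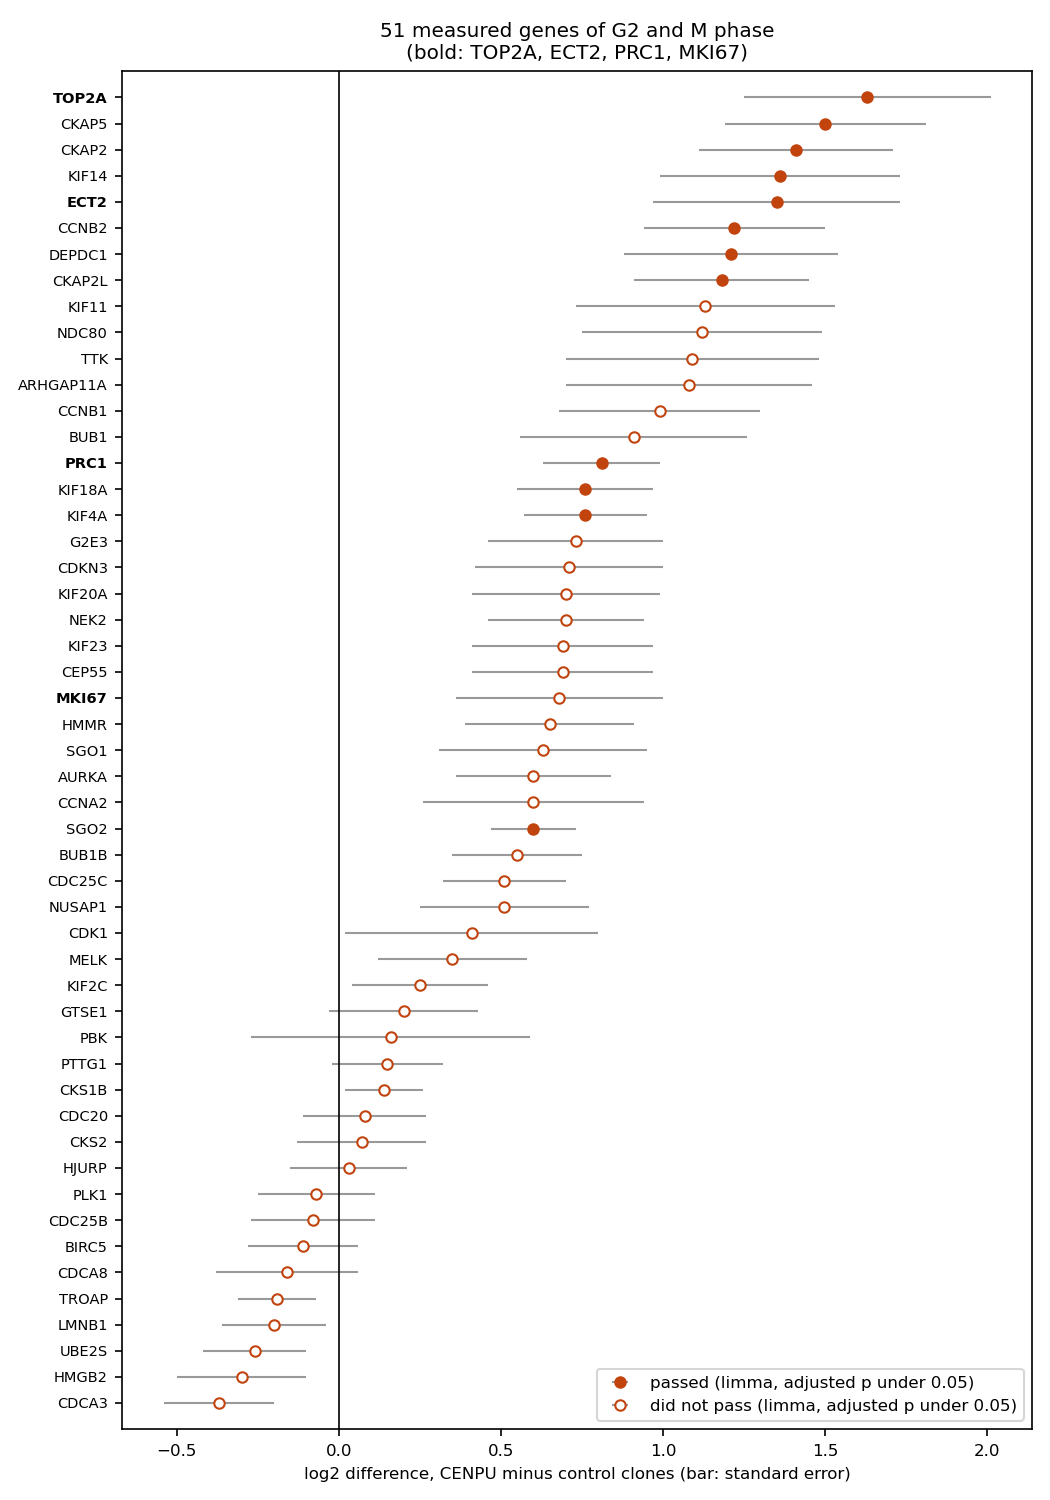
Log2 differences (CENPU minus control clones, x axis, bars are limma standard errors) of the 51 measured genes of G2 and M phase, with filled points for those that passed and the 4 genes in bold. The differences run from -0.37 for CDCA3 to 1.63 for TOP2A, and all 12 filled points lie to the right of 0.

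The list count depended on single clones, and so did the count over all genes. Of the 47 besides the 4, 9 rose in all clones and 14 without CENPU clone 1. Without CENPU clone 7 it was 3, and without control clone 2 it was 5. Without control clone 3, CENPU clone 13 or control clone 4 it was 4 each. In every one of these fits 0 fell. Over all 14884 genes 1504 passed in all clones, 688 without CENPU clone 7, 820 without control clone 3, 801 without CENPU clone 13, 687 without control clone 2 and 613 without control clone 4, while 2471 passed without CENPU clone 1. Without CENPU clones 7 and 13 and control clone 2, CKAP5 and CKAP2 rose, HMGB2, a chromatin protein gene, fell and 44 of the 47 did not pass, where 3.16% of all genes passed, and the median was 0.15. The list averaged 0.75 above the 10-clone mean in CENPU clone 13 and 0.46 above it in CENPU clone 7, against -0.77 in control clone 2 and -0.54 in control clone 3. In CENPU clones 1, 4 and 5 it averaged 0.01, -0.04 and 0.14, close to the 0.13, -0.18 and 0.04 of control clones 1, 4 and 5.

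Among genes of mitotic chromosome structure, the partners of TOP2A and MKI67, KIF4A rose, TOP3A, a topoisomerase of recombination intermediates, fell by 0.38 (limma adjusted p = 0.0357), and 8 of the 10 measured besides TOP2A and MKI67 did not pass. These 2 calls of 10 stand against 10.1% of all genes that passed. The median difference was 0.51. TOP2B, the paralog of TOP2A that is not limited to dividing cells, averaged 7.84 ± 1.14 in CENPU clones and 6.42 ± 0.69 in control clones (SD, n = 5 each). It differed by 1.42 with a standard error of 0.50 and did not pass (limma adjusted p = 0.0917). CDCA2, which brings phosphatase to anaphase chromosomes, differed by 1.07 (adjusted p = 0.0563) and the condensin ATPase gene SMC2 by 0.88 (adjusted p = 0.246). The condensin genes NCAPD2, NCAPD3, NCAPG, NCAPG2, NCAPH and NCAPH2 were not analysed here. Without CENPU clones 7 and 13 and control clone 2, 0 of these 10 passed in limma, 2 had an unadjusted p under 0.05 (1 higher and 1 lower), and the median was -0.07. In that fit 3.16% of all genes passed, so 0 of 10 is not read as a result about the list. All genes were not counted at an unadjusted p under 0.05 in any fit. None of the 10 passed in 5 of the 10 fits that left out 1 clone (CENPU clone 7, CENPU clone 13, or control clone 3, 4 or 5), and 5 had an unadjusted p under 0.05 in each of these. Over all genes calls fell from 1504 to 688, 801, 820, 613 and 835 in these fits.

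Central spindle and cytokinesis genes, the partners of ECT2 and PRC1, were more often higher than lower in CENPU clones among those that passed. Of 25 measured besides ECT2 and PRC1, 8 rose, 2 fell and 15 did not pass, against 5.31% of all genes higher and 4.79% lower, with a median difference of 0.51. The lists share genes and are not separate evidence. Of the genes that rose, KIF4A is also on both lists above and KIF14 on the G2 and M phase list. RACGAP1, the GTPase-activating partner that recruits ECT2 to the midzone, rose by 0.60 (limma adjusted p = 0.0218), in a dim row that averaged 4.11 ± 0.12 in CENPU clones and 3.51 ± 0.30 in control clones (SD, n = 5 each). KIF23, the kinesin that forms the centralspindlin complex with RACGAP1, differed by 0.69 and did not pass (adjusted p = 0.129). KIF4A, the kinesin that PRC1 brings to the midzone, rose by 0.76, and KIF20B and CLASP1, which also act on midzone microtubules, by 1.07 and 1.01 (adjusted p = 0.0152 and 0.00988). The row of KIF20B was dim in control clones, averaging 5.14 ± 0.52 in CENPU clones and 4.07 ± 0.24 in control clones. SEPTIN2, a furrow filament gene, rose by 0.92 and USP8, a deubiquitinase of the endosomal pathway, by 1.08 (adjusted p = 0.0226 and 0.0223).

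The 2 genes of this list that fell were AURKB, the kinase of the chromosomal passenger complex, by 0.72 (limma adjusted p = 0.0147), and RAB11FIP3, a membrane traffic adaptor of the midbody, by 0.53 (adjusted p = 0.028). INCENP and CDCA8, which share the passenger complex with AURKB and BIRC5, differed by -0.01 and -0.16. ARHGAP11A and KIF20A differed by 1.08 and 0.70 and did not pass (adjusted p = 0.0906 and 0.148). Without CENPU clones 7 and 13 and control clone 2, KIF20B and CLASP1 still passed, with differences of 0.70 and 0.67, and the other 23 did not. In that fit 3.16% of all genes passed. Besides ECT2 and PRC1, 8 rose and 2 fell in all clones. These counts were 2 and 1 without CENPU clone 7 or control clone 4. They were 3 and 1 without control clone 2, and 5 and 1 without control clone 3. Over all genes 1504 passed in all clones, 688 without CENPU clone 7, 613 without control clone 4, 687 without control clone 2 and 820 without control clone 3.

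The transcription factors that switch on this class of genes were not shown to differ. FOXM1 differed by 0.07 with a standard error of 0.17, and its SD was 0.13 among CENPU clones and 0.39 among control clones (n = 5 each) (limma adjusted p = 0.81), and MYBL2 differed by -0.39 with a standard error of 0.17 (adjusted p = 0.16). Of 16 measured regulators, DYRK1A, a kinase that assembles the DREAM complex, rose by 0.73, LIN37, a MuvB subunit, fell by 0.41 and CCNF, which encodes cyclin F, fell by 0.56 (adjusted p = 0.0468, 0.046 and 0.0221). The other 13 did not pass, among them RB1 (0.76) and TFDP2 (0.74), and the median difference was 0.15. These 3 calls of 16 stand against 5.31% of all genes higher and 4.79% lower. In fits without CENPU clone 7, control clone 2, control clone 4 or control clone 5, 0 of the 16 passed in limma, and 4 or 5 had an unadjusted p under 0.05. All genes were not counted at that unadjusted threshold, so whether 4 or 5 of 16 exceeds their share is not known. Over all genes calls fell from 1504 to 688, 687, 613 and 835 in these fits. The NF-Y subunit genes, CDKN1A, E2F4 and E2F5 were not analysed here.

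S phase and DNA replication genes, the other large group of cycling cells, had more calls lower than higher in CENPU clones. Of 25 measured, MCM6, a subunit of the replicative helicase, rose by 1.09, 6 fell and 18 did not pass, against 5.31% of all genes higher and 4.79% lower, with a median difference of -0.31. E2F1, the activator of S phase genes, fell by 0.96, CDC45 by 0.68, E2F2 by 0.56, UHRF1 by 0.53 and FEN1 by 0.50 (limma adjusted p = 0.00506, 0.00804, 0.0236, 0.0233 and 0.0143). RRM1 and CCNE1 differed by 0.75 and -0.65 and did not pass (adjusted p = 0.0841 and 0.055). PCNA, another marker of proliferating cells, was picked out with its value known and differed by -0.40 (adjusted p = 0.215). The S phase list averaged between -0.22 and 0.04 about the 10-clone mean in CENPU clones and between -0.10 and 0.21 in control clones, so it did not separate CENPU clones 7 and 13 from the rest. Calls fell to 4 of 25 without CENPU clone 7, CENPU clone 13 or control clone 4. Over all genes calls fell from 1504 to 688, 801 and 613 in these fits. At an unadjusted p under 0.05 in limma, 11, 12 and 10 of the 25 were lower in them, and 3 were higher in each. All genes were not counted at that unadjusted threshold.

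The CHR and CCAAT letters were also counted in the lists, by gene, whereas the 4.69% with both given above is a share of single windows. A share over all genes was not counted, and whether the letters go with a rise was not tested. Both were present for 6 of the 9 other G2 and M phase genes that rose and for 14 of the 32 that did not pass and had a window, against 1 of 21 S phase genes with a window. CCNB2, CKAP5, CKAP2L and KIF4A held both, and so did CDC20 and PLK1, which did not pass.

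The genes most like the 4 within groups were found from the mean of their standardised deviations, over 10 clones and 6415 protein-coding genes with a mean level of at least 6. ARHGAP11A, a RhoA regulator of the cell equator, had r = 0.991, USP13 had 0.989, BUB1, a checkpoint kinase gene, 0.985, NUSAP1, a spindle protein gene, 0.982 and PLPBP 0.981. ARHGAP11A, BUB1 and NUSAP1 were on the G2 and M phase list. With so many genes and 10 clones, high values were common: 4.82% of all candidates exceeded r = 0.9. Of the 40 other G2 and M phase genes among the candidates, 11 (27.5%) exceeded it and the median r was 0.73, against a median of 0.20 over all candidates and 0.46 over 24 S phase genes. The values ran down to -0.74 for UBE2S, and CDC20 (-0.01), PLK1 (0.26) and BIRC5 (0.28) did not follow the 4 genes across clones. The genes share the 10 arrays and the span trend, so these values are a description.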

How the data were processed

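RNA of 10 PC-3 clones was measured on 1-channel Affymetrix arrays. The authors deposited log2 expression values, made with Partek and RMA per the submitters' processing notes, and the log2 scale was inferred from their range of 1.65 to 15.0. Background was not assessed for single rows, and RMA scaling removes a change shared by most genes. Of 53617 rows, 16098 had 1 gene symbol in the platform table, and all were matched by gene ID to RefSeq (GRCh38.p14). The row of highest mean stood for each of 14884 genes.

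The named rows went into 1 limma fit (limma 3.58.1 in R 4.3.3), with Benjamini-Hochberg adjustment over 16098 rows and a threshold of 0.05. The fit was tested on artificial values with known differences. A p-value here reflects how isolates of 1 line differ. Correlations used deviations from group means and all 14400 orders within groups. The members and gene lists were chosen with earlier results of these data known. Named were, per list, up to 6 genes that passed by smallest p, the 2 largest differences that did not pass, 6 partners, paralogs or activators, and the 5 most similar genes. SMC2, INCENP, CDCA3, CDCA8, RAB11FIP3, HMGB2, PLK1, CDC20, BIRC5, PCNA and UBE2S were chosen after their values were seen.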

Additional observations from a re-analysis of the deposited data

Results flagged for a closer look

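Single clones stood apart from the other 4 of their group in 7 of 90 groups of values examined, by a gap of more than 0.71 of the range, and about 1 in 20 would do so by chance. None of the 4 genes was among them. In control clone 2, CKAP5 was at 7.02, with the next clone at 8.03, KIF4A was at 7.14, with the next at 7.98, and TOP2B was at 5.22, with the next at 6.45. In control clone 3, AURKB was at 9.25, with the next at 9.72, CCNF was at 8.34, with the next at 8.79, and MYBL2 was at 10.04, with the next at 10.28. TOP3A was at 7.86 in CENPU clone 1, with the next clone at 7.94.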

How the results depend on the processing

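The differences of TOP2A, ECT2 and PRC1 kept their direction in every fit that was run, and moved by less than the spread between clones after quantile normalization, median centring and removal of the gene span trend. Leaving out 1 clone gave 1.35 to 1.87 for TOP2A, 1.06 to 1.54 for ECT2, 0.70 to 0.95 for PRC1 and 0.45 to 0.85 for MKI67. It gave 613 to 2471 genes that differed in all, 0 to 5 calls in mitotic chromosome structure, 4 to 15 in central spindle and cytokinesis, 4 to 17 in G2 and M phase, 0 to 4 among regulators and 4 to 9 in S phase. Counts of calls in the lists here and below include the 4 genes where a list holds them.

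Without control 2, CENPU 7 and CENPU 13 together, TOP2A differed by 0.85 and ECT2 by 0.54, 470 genes passed against 1504 in all clones, and the lists held 0 (chromosome structure), 2 (central spindle), 3 (G2 and M phase), 0 (regulators) and 4 (S phase) calls. The groups share clone numbers 1, 4 and 5, which name clones and did not pair them: deviations of same-numbered clones correlated at -0.379, 0.104 and 0.0227. With clone number as a replicate block, which rests on those 6 clones, TOP2A differed by 0.74, ECT2 by 0.45, PRC1 by 0.50 and MKI67 by -0.01, 55 genes passed and 0 in each of the 5 lists, where between 3 and 17 other list genes had an unadjusted p under 0.05 in limma. In G2 and M phase these were 8 higher and 9 lower, with a median of 0.06. All genes were not counted at that unadjusted threshold. At an adjusted p under 0.10, 2588 genes passed, with 6 in chromosome structure, 19 in G2 and M phase and 13 in S phase. Tested over the whole array, named or not, 3034 passed. Array weights gave 6 calls in chromosome structure, where 2251 of all genes passed. Fitting by eBayes with trend and robust settings gave 1 call among regulators, where 1353 of all genes passed. In the main fit 1504 passed. By Spearman's rho PRC1 and MKI67 passed (0.72), and without the 2 farthest clones the span trend no longer passed with TOP2A (0.76), ECT2 (0.72) or MKI67 (0.81), where 2 clones fewer were tested. The other causes of these changes were not tested. Each of the 4 genes has 1 row, so no other row could be tried. The number of clones limits the precision.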
